A study of Mus musculus with 4 samples.

Results

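Runx2 occupancy was mapped at 67703 genomic regions of MC3T3-E1 cells by merging Runx2 ChIP-Seq peaks of day 0, day 9 and day 28 that shared at least 1 bp, and 8297 of these regions (12.3%) were distal and bound at all stages. A region was included if each of the 3 lists held a peak in it, its centre lay more than 1 kb and at most 100 kb from the nearest protein-coding transcription start site (TSS), and its centre lay in no protein-coding exon. The regions were thus selected on the presence of a peak, that is on peak scores above the calling threshold, at each time point, so peak numbers and scores are given below as a description. They made up 44.65% of the 18584 regions bound at all stages, and the distal regions of all patterns numbered 43666. Of the other regions bound at all stages, 8577 had their centre within 1 kb of a TSS, 1377 lay over 100 kb away and 333 were centred in an exon. For comparison, 10117 distal regions had peaks at days 9 and 28, 16937 at day 9 only and 2716 at day 0 only.

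MC3T3-E1 (subclone 4) is a clonal line of preosteoblasts from the calvaria of C57BL/6 mice, which deposits and mineralizes a collagen matrix in medium with ascorbic acid and beta-glycerophosphate. Chromatin was precipitated with a Runx2 antibody from proliferating cells (day 0), matrix-depositing cells (day 9) and mineralizing cells (day 28), and input DNA served as the control. The reads of 2 libraries per time point were pooled before peaks were called, and 1 list per time point was deposited, so there is no spread between replicates and no p-value between time points. The lists held 25457, 60596 and 40330 peaks with no read counts, and the input came from day 9 cells alone. The lists hold no RNA values, so markers of the osteoblast lineage could not be checked in them. The study reports such markers for differentiating MC3T3-E1 cells by staining and quantitative RT-PCR.

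Runx2 is the runt-domain transcription factor on which osteoblast formation depends, and with its partner Cbfb it binds the core word TGTGGT. Distal elements such as enhancers often carry words for several factors, among them AP-1, the dimer of Fos and Jun proteins, and TEAD proteins, the DNA-binding partners of YAP in the Hippo pathway. Promoters of mammalian genes are often rich in CpG dinucleotides and in GC boxes bound by SP and KLF proteins, while CTCF binds insulators and the anchors of chromatin loops.

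The sequences below show what lies at the centre of such regions. They are taken from the plus strand of mm9 (NCBIM37), centred on the stretch that the peaks of all 3 lists shared, and capitals mark TGTGGT or its reverse complement ACCACA. The first 3 are from regions whose peaks ranked near the top of every list, at chr1:36087510-36087609 upstream of Hs6st1, which encodes a heparan sulfate sulfotransferase, at chr1:134848687-134848786 downstream of the TSS of Lrrn2, a leucine-rich repeat membrane protein, and at chr1:135936094-135936193 in the first kilobases of Fmod, the collagen-binding proteoglycan fibromodulin. The next are from an intron of Sp7 (chr15:102190703-102190802), the osteoblast transcription factor osterix, from upstream of Spp1 (chr5:104837013-104837112), the bone matrix protein osteopontin, and from an intron of Alpl (chr4:137300313-137300412), the alkaline phosphatase needed for mineralization. The Alpl window holds no TGTGGT, like the central 100 bp of most regions, though 51.3% of regions held a copy in the central 300 bp.
Hs6st1: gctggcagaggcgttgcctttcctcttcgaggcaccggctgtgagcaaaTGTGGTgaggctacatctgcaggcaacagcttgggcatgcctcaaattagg
Lrrn2: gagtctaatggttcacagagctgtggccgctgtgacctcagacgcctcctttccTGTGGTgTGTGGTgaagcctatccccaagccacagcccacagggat
Fmod: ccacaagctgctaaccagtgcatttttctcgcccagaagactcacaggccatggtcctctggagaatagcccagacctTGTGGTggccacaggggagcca
Sp7: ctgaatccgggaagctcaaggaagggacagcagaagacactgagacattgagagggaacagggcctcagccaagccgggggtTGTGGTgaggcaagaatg
Spp1: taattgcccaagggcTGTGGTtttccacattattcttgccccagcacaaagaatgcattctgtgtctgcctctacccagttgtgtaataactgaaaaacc
Alpl: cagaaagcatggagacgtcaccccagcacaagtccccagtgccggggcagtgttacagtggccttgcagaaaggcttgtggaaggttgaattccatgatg

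At Runx2 itself, the region next to a TSS of the gene held no TGTGGT at its centre and 1 AP-1 word, which the capitals mark here (mm9, plus strand, chr17:44875188-44875287).
Runx2: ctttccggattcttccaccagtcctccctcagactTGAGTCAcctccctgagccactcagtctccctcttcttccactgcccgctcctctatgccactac

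A small number of regions consisted of repeated Runx words. The 300 bp at the centre of 3 of them are shown because the word recurs there in tandem, once on the plus strand in an intron of Osbpl10 (mm9, chr9:115000161-115000460), once near Ywhah (chr5:33383669-33383968), and once on the opposite strand near Prokr2 (chr2:132307355-132307654). Capitals mark TGTGGT or ACCACA, of which these windows held 26, 15 and 14 copies.
Osbpl10: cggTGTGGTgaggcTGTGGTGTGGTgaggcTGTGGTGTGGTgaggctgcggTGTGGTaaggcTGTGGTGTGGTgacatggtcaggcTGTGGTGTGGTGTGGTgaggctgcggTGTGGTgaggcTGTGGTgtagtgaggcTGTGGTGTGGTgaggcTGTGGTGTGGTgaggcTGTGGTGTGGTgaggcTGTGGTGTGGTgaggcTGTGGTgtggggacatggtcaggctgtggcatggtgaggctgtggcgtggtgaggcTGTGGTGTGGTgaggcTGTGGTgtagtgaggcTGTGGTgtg
Ywhah: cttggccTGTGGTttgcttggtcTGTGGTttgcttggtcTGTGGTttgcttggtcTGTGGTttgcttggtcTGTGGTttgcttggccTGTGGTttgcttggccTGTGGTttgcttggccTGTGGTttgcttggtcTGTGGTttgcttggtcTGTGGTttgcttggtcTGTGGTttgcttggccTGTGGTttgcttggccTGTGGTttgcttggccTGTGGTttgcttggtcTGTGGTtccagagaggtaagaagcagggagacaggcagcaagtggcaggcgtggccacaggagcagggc
Prokr2: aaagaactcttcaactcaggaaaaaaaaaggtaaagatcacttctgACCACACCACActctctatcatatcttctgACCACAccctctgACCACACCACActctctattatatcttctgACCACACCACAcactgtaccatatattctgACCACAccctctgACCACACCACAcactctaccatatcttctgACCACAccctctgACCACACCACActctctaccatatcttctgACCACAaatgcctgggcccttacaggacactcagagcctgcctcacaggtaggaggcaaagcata

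A region needed a peak in every list, so the regions contained similar numbers of peaks at each time point, and these were necessarily the largest part of the shortest list. They contained 8441 of the day 0 peaks (33.2% of the list), 9484 of the day 9 peaks (15.7%) and 8731 of the day 28 peaks (21.6%). Among the peaks with the top score, which many peaks of a list share and which therefore have no order among themselves, the regions held 148 of 211 at day 0 (70.1%), 917 of 2910 at day 9 (31.5%) and 469 of 1630 at day 28 (28.8%). The score of a peak is 10 times the negative log10 of its p-value and depends on read depth, so peaks were ranked within their own list, as the percentile of peaks at or below a score, with ties at their middle rank. The strongest peak of each region had a median percentile of 58.2 in the day 0 list, 71.9 in the day 9 list and 62.7 in the day 28 list. These levels depend on how far down each list reached, since with each list shortened to its 25457 strongest peaks the medians of the 5374 regions then found were 68.9, 58.95 and 60.1. Since each culture was assayed in bulk, binding in fewer cells and weaker binding per cell cannot be told apart.

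Ranks were alike at days 9 and 28 and less so between day 0 and the later days. Over the 8297 regions, Spearman's rho of the percentiles was 0.812 between days 9 and 28, 0.435 between days 0 and 9 and 0.517 between days 0 and 28. These are descriptions over regions that share libraries, base composition and the calling threshold. The time point with the highest percentile depended on the length of the lists. In the full lists it was day 9 for 4160 regions (50.1%), day 0 for 2685 (32.4%) and day 28 for 1452 (17.5%), while in lists of equal length it was day 0 for 2808 of 5374 regions (52.25%), day 9 for 1329 (24.7%) and day 28 for 1237 (23.0%). No direction of change between time points can therefore be read from the percentiles. In the full lists, the tied top peaks were at percentile 99.6, 97.6 and 98.0 at days 0, 9 and 28. From day 0 to day 9, 2211 regions (26.6%) had a percentile more than 30 points higher and 589 (7.10%) a percentile more than 30 points lower, against 12.5% and 22.5% in lists of equal length. From day 9 to day 28, 192 regions (2.31%) were more than 30 points higher and 775 (9.34%) more than 30 points lower, against 7.63% and 5.17%. A total of 577 regions were in the top 10% of all 3 lists, 109 had the top score in all 3, and 49 were below percentile 20 in every list.

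The 10 regions named for strong peaks in every list were taken in chromosome order from 175 that were tied at the highest minimum percentile (97.6), so all 10 lie on chromosome 1. Besides those near Hs6st1, Lrrn2 and Fmod, they lay near Wnt10a, a Wnt ligand expressed in bone and teeth, Nhej1, a DNA end-joining factor, Sh3bp4, an endocytic adaptor, Otos, an inner ear protein, Gpc1, the heparan sulfate proteoglycan glypican, 2310007B03Rik, and Prelp, a leucine-rich proteoglycan of connective tissue. The Prelp region (chr1:135837054-135839522) lay at -20297 bp from its TSS (negative distances lie upstream) and the Fmod region (chr1:135934733-135937142) at 1865 bp, in an intron. Of these 10 windows of 100 bp, those of Hs6st1, Sh3bp4, 2310007B03Rik, Lrrn2 and Fmod held TGTGGT and the other 5 did not. The share was similar in a larger set: of the 195 regions with a minimum percentile of at least 97, 55 (28.2%, 95% interval 22.0 to 35.1) held it, against 26.7% of all regions. The intervals of shares are exact (Clopper-Pearson) and account for nothing but counting error.

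The regions whose percentiles in the full lists differed most were strong at one time point and near the calling threshold at another. The region near Lsm3, which encodes a splicing and mRNA decay factor (chr6:91474845-91476115), was at percentile 91.7 at day 0, 0.37 at day 9 and 58.1 at day 28. That near Aebp2, a cofactor of the Polycomb complex PRC2, was at 92.6, 2.09 and 29.4, and that in an intron of Ppm1h, a protein phosphatase, at 89.9, 0.36 and 59.1. All 3 were lowest at day 9 and kept a peak that only just passed the threshold there.

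The reverse pattern, weak at day 0 and at the top score at day 9, was led by a region near Kcnrg, a regulator of potassium channels (chr14:62299509-62300743), with percentiles of 0.92, 97.6 and 88.0 at days 0, 9 and 28. The regions in introns of Snapc4, a subunit of the snRNA transcription complex, and Rab11fip4, a Rab11 effector, were at 1.43 and 1.55 at day 0 and at the top score at both later days. Between days 9 and 28 the percentile fell by 83.3 points in an intron of Wrb, a factor for tail-anchored membrane proteins, fell by 76.5 points at Gm17706 in an intron of Itpr2, and fell by 72.9 points in an intron of Slc22a4, an organic cation transporter. The largest gains were 72.0 points near Gm11084, 62.6 points near Fam69c and 61.9 points near Lox, which encodes the lysyl oxidase that cross-links collagen. The Lox region had percentiles of 64.9, 0.93 and 62.8 at days 0, 9 and 28, so its peak was near the threshold at day 9 alone.

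Most regions consisted of a single peak at each time point, and those peaks lay close together. Exactly 1 peak per list was found in 7154 regions (86.2%), and in these the centres differed by a median of 62 bp between days 0 and 9, 50 bp between days 9 and 28 and 63 bp between days 0 and 28. The stretch covered by all 3 lists, called the core, had a median length of 580 bp, with the middle 50% between 448 and 779 bp, and 24 regions had no base in common to all 3 lists. The merged regions ranged from 329 to 14525 bp with a median of 1054 bp. Their peaks were wider than other distal peaks, with medians of 918 against 766 bp at day 0, 612 against 494 bp at day 9 and 816 against 642 bp at day 28. Because the rule asks for peaks that overlap between lists, wide peaks were more likely to be included. The widths are therefore a description only.

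The regions lay at a median distance of 19095 bp from the nearest protein-coding TSS, and 46.4% lay upstream of it. By distance, 1401 regions were within 5 kb, 2883 between 5 and 20 kb, 2525 between 20 and 50 kb and 1488 between 50 and 100 kb. An intron of a protein-coding gene held 4064 regions (49.0%, 95% interval 47.9 to 50.1), a smaller share than for distal regions with peaks at days 9 and 28 (56.1%, 55.1 to 57.1) or at day 9 only (55.9%, 55.1 to 56.7), and close to that at day 0 only (46.7%, 44.8 to 48.6). Another such region lay within 10 kb of 34.8% of the regions and within 50 kb of 69.2%. Their density was highest on chromosome 11 (6.16 per Mb, 750 regions) and lowest on chromosome X (0.426 per Mb, 71 regions). The rule admits only centres within 100 kb of a protein-coding TSS. The number of such start sites per chromosome was not taken into account.

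Start sites of transcripts without a coding product lay within 1 kb of 513 regions (6.18%, 95% interval 5.67 to 6.72). This share was above that of distal regions of days 9 and 28 (3.84%, 3.47 to 4.23), day 9 only (4.12%, 3.83 to 4.43) and day 0 only (2.54%, 1.98 to 3.20), with no overlap of intervals. At 334 of the 513 regions at least 1 of these transcripts belonged to another gene, while at 179 all were non-coding transcripts of a protein-coding gene. A lincRNA start was present at 107, an antisense transcript at 48 and a microRNA at 32. The 200 bp at the centre was CpG-rich at 38.4% of the 513 regions and at 8.43% of the others.

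The Runx core word was the most frequent of the words searched at the centre of the regions. TGTGGT or its reverse complement was present in the 100 bp at the core centre of 2216 regions (26.7%, 95% interval 25.8 to 27.7), against 7.71% of windows of the same length 450 to 550 bp away on either side and 29.6% of all distal regions. The longer word TGTGGTT, which overlaps it, was present in 12.1% against 2.46% of flanks. In the 300 bp at the centre, 4260 regions (51.3%) held at least 1 copy of TGTGGT, and anywhere in the core 5456 did (65.8%). The flanks may lie inside wide peaks.

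**Figure D1:**
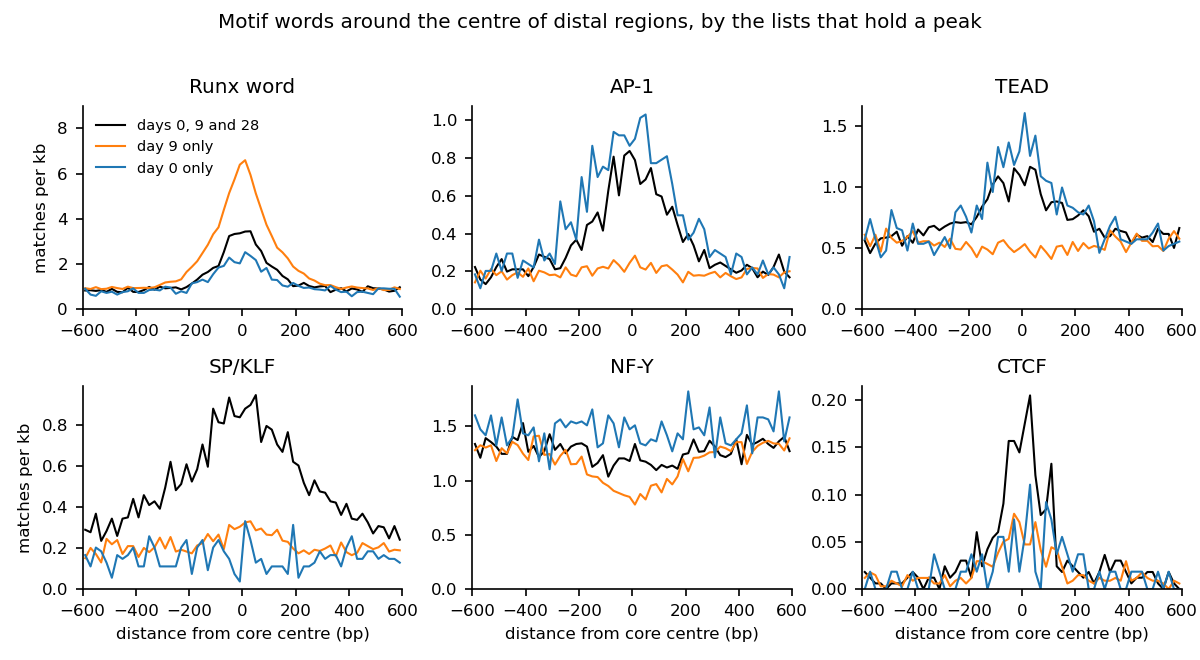
Matches per kb of the Runx word and of words for AP-1, TEAD, SP/KLF, NF-Y and CTCF (y axes, linear, each with its own scale) against the distance in bp from the core centre, in bins of 20 bp, for distal regions with peaks at days 0, 9 and 28 (black), at day 9 only (orange) and at day 0 only (blue). The AP-1 and TEAD words are raised around the centre of regions bound at all stages and at day 0 only, and SP/KLF words in the regions bound at all stages. At day 9 only, AP-1 words are at 2.11% of centres against 1.73% of flanks and the TEAD word at 4.31% against 5.02%.

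Words for 8 other factors were searched on both strands in the same windows, and those for AP-1, TEAD, SP/KLF, ETS and CTCF were more frequent at the centre than in the flanks. AP-1 words (TGACTCA or TGAGTCA) were at the centre of 551 regions (6.64%, 95% interval 6.11 to 7.20) against 1.88% of flanks and 4.01% of all distal regions. The TEAD word (GGAATG) was at 802 (9.67%, 9.04 to 10.3) against 5.53% of flanks and 6.98% of all distal regions. The GC box of SP and KLF proteins (GGGCGG) was at 567 (6.83%, 6.30 to 7.40) against 2.501% of flanks and 4.05% of all distal regions. The CTCF core word was at 130 (1.57%, 1.31 to 1.86) against 0.0663% of flanks and 0.946% of all distal regions. The ETS word (CCGGAA) was at 208 (2.51%, 2.18 to 2.87) against 1.22% of flanks and 1.39% of all distal regions. CpG-rich windows were at 43.9% of regions with the GC box and 31.7% with the ETS word, against 7.81% and 9.73% without each word.

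For CREB, C/EBP and NF-Y words the intervals at the centre and in the flanks overlapped. The CREB word (TGACGTCA) was at 15 regions (0.181%, against 0.102% of flanks and 0.156% of all distal regions). The C/EBP word (TTGCNNAA) was at 4.09%, with 4.00% in the flanks and 3.29% in all distal regions, and the NF-Y word (CCAAT) at 11.0%, with 11.7% in the flanks and 9.65% in all distal regions. TGTGGTT contains TGTGGT, and no other word searched contains another. A match is a description of the letters in the window and not of binding by the factor.

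Against the distal regions of other time-point patterns, those bound at all stages held the Runx word less often than those with a day 9 peak and no day 0 peak, and AP-1 and TEAD words more often. TGTGGT was at 26.7% of the regions, 32.0% of those with peaks at days 9 and 28 and 33.1% of those at day 9 only. The differences, regions bound at all stages minus the others, were -5.32 percentage points (95% interval -6.63 to -4.00) and -6.37 points (-7.55 to -5.18). At the centre of the day 9 peak, these 3 shares were 24.85%, 36.29% and 48.53% at day 9 percentiles of 80 to 100. At percentiles of 20 to 40 they were 26.59%, 26.52% and 31.88%. The lower share relative to days 9 and 28 was thus not present at every strength. AP-1 words were at 6.64% against 3.06% (difference 3.58 points, 2.95 to 4.22) and 2.11% (4.53 points, 3.97 to 5.13). TEAD words were at 9.67% against 6.83% (2.84 points, 2.04 to 3.65) and 4.31% (5.36 points, 4.66 to 6.07).

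Regions at day 0 only differed in the other direction. There, TGTGGT was at 19.1% (difference 7.64 points, 5.85 to 9.36), AP-1 words at 8.25% (-1.61 points, -2.82 to -0.483) and TEAD words at 11.7% (-2.01 points, -3.41 to -0.679). These set the core centre of the one group against the centre of a single peak in the other. With the centre of the day 0 peak used for both, TGTGGT was at 22.5% of the regions bound at all stages and the difference was 3.44 points (1.68 to 5.14), and the differences were -2.41 points (-3.61 to -1.305) for AP-1 words and -2.500 points (-3.90 to -1.18) for TEAD words. AP-1 words were also at 9.09% of the 880 distal regions of days 0 and 9 and at 9.36% of the 1015 of days 0 and 28, against 3.64% of the 3704 at day 28 only. Each pattern with a day 0 peak thus had a higher share of AP-1 words than each pattern without one, and the intervals of the former did not overlap those of the latter. In total, 33 such differences were computed, for 11 features against 3 patterns, by Newcombe's method without adjustment.

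**Figure D2:**
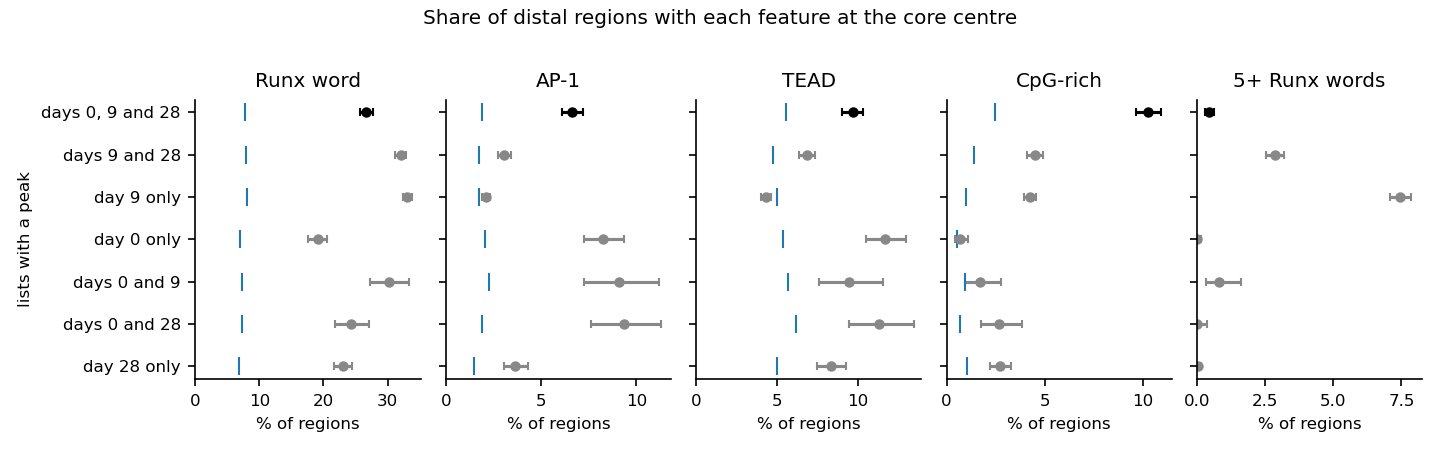
Percent of distal regions with the Runx word, an AP-1 word, a TEAD word, a CpG-rich window and 5 or more Runx words in 300 bp (panels, x axes linear from 0) for each combination of lists that holds a peak (rows), with exact binomial 95% intervals. Blue ticks mark the share in the flanks of the same regions where it was counted. The top row, regions bound at all stages, has an AP-1 share of 6.64% and a CpG-rich share of 10.3%.

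Against regions with a day 9 peak and no day 0 peak, an AP-1 difference in the same direction was found at like strength and at the same kind of peak centre. At the centre of the day 9 peak, AP-1 words were at 4.69% of regions bound at all stages with a day 9 percentile of 80 to 100 (144 of 3071), 2.09% of those of days 9 and 28 (40 of 1915) and 0 of 136 at day 9 only, where a count of 0 allows a share of up to 2.68% (upper exact binomial bound). At percentiles of 20 to 40 the shares were 10.4%, 4.13% and 2.27%. Against day 0 only, the difference did not have the same direction at every strength. At the centre of the day 0 peak, the shares for regions bound at all stages and for day 0 only were 6.72% and 9.82% at percentiles of 0 to 20, 5.46% and 7.47% at 20 to 40, 6.25% and 6.36% at 40 to 60, 6.07% and 5.61% at 60 to 80, and 5.11% (117 of 2290) and 8.62% (5 of 58, interval 2.86 to 18.98) at 80 to 100. The AP-1 intervals of both groups overlapped in each of these 5 bands. At the same centres, TGTGGT was at 21.62% and 17.94% at 0 to 20, and at 23.06% and 24.14% at 80 to 100. Its intervals also overlapped in each band. TEAD words were at 8.49% and 14.05% at 20 to 40, and at 10.92% and 5.17% (3 of 58) at 80 to 100. Below 80, the TEAD share at all stages was the lower in every band. Neither difference thus had the same direction at every strength.

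Taken over all strengths, CpG-rich sequence was more frequent in the regions bound at all stages than in each compared distal pattern. A window was called CpG-rich where its 200 bp had a GC content of at least 50% and a ratio of observed to expected CpG of at least 0.6. Such windows were at the centre of 853 regions (10.3%, 95% interval 9.63 to 10.9), against 2.49% of flanks, 5.01% of all distal regions, 4.51% of those of days 9 and 28 (difference 5.77 points, 5.01 to 6.55), 4.24% of those at day 9 only (6.04 points, 5.33 to 6.78) and 0.700% of those at day 0 only (9.58 points, 8.84 to 10.3). The GC box followed the same order, with 6.83% against 5.15%, 2.79% and 1.44%. The median GC content of 53.5% was however equal to that of days 9 and 28, and above the 47.5% of day 0 only. The CpG-rich difference from days 9 and 28 and from day 9 only depended on strength. At the centre of the day 9 peak, the shares were 3.48%, 4.28% and 4.18% at day 9 percentiles of 0 to 20, with overlapping intervals. At percentiles of 80 to 100 they were 13.58%, 3.03% and 4.41%, and the intervals at all stages did not overlap the others. The 8577 regions bound at all stages within 1 kb of a TSS, for comparison, were CpG-rich in 85.3% and held the GC box in 34.6% and TGTGGT in 4.31%.

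CpG-rich windows and the Runx word were largely found in different regions. TGTGGT was at 6.21% of the CpG-rich regions (53 of 853) and at 29.1% of the others (2163 of 7444). AP-1 words were at 1.76% of the CpG-rich regions and 7.20% of the others. Regions with an AP-1 word held TGTGGT in 29.8% (164 of 551, interval 26.0 to 33.8), close to the 26.5% of those without one, and regions with a TEAD word held it in 26.8%, against 26.7%. A total of 4401 regions had none of the Runx, AP-1 and TEAD words at their centre and were not CpG-rich.

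Tandem repeats of the Runx word were rare among regions bound at all stages and common at day 9 only. At least 5 copies of TGTGGT in 300 bp were present in 37 regions (0.446%, 95% interval 0.314 to 0.614), in 289 of days 9 and 28 (2.86%, 2.54 to 3.20), in 1263 at day 9 only (7.46%, 7.07 to 7.86), in 1 at day 28 only and in 0 of 2716 at day 0 only, which allows a share of up to 0.136%. With these left out, TGTGGT was at 26.4% of regions bound at all stages (25.4 to 27.3), 30.1% of those of days 9 and 28 (29.2 to 31.0) and 27.9% at day 9 only (27.2 to 28.6). With CpG-rich windows left out as well, the shares were 28.7% (27.7 to 29.7), 31.1% (30.2 to 32.1) and 28.7% (28.0 to 29.5). At these centres the shares at all stages and at day 9 only were then alike. The intervals for days 9 and 28 stayed apart. Repeats and CpG-rich windows were also left out at the centre of the day 9 peak. At day 9 percentiles of 0 to 20 the shares were then 28.85%, 29.39% and 29.04% in the same order. At 40 to 60 they were 26.51%, 30.53% and 28.51%, and at 80 to 100 27.00%, 30.81% and 13.16%. The intervals at all stages overlapped those of days 9 and 28 in every band, and those of day 9 only in every band below 80.

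Of the repeat regions, 64.9% had the top score at day 9, against 10.9% of all regions bound at all stages. The Osbpl10 region, in an intron of a gene for an oxysterol-binding protein (26 copies, chr9:114999659-115000931), was at percentile 13.0 at day 0 and at the top score at days 9 and 28. The Prokr2 region, near the gene for a prokineticin receptor (14 copies), was at 11.1, 97.6 and 68.6, and that near Il17b, a cytokine gene (17 copies), at 1.68, 97.6 and 91.7. The Dynlrb1 region, in an intron of a dynein light chain gene (14 copies), was at 89.98, 97.6 and 89.9, and the Ywhah region, near a 14-3-3 protein gene (15 copies), had the top score in all 3 lists. The 37 regions were thus at the top of the day 9 list for the most part and spread over the whole day 0 list, with a day 0 median of 62.3 (95% interval 27.4 to 76.9).

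**Figure D3:**
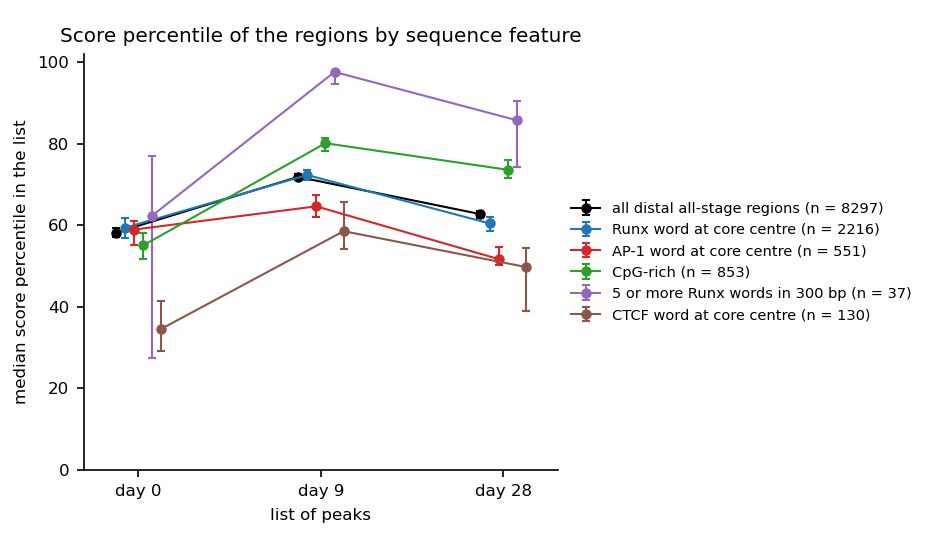
Median score percentile within each list (y axis, 0 to 100) of distal regions bound at all stages at days 0, 9 and 28 (x axis), for all regions and for those with each sequence feature at the centre, with distribution-free 95% intervals of the median. CpG-rich regions sit above all regions at days 9 and 28 (80.1 against 71.9 at day 9), AP-1 regions below them (64.6 at day 9), and CTCF regions lowest at day 0 (34.6).

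At days 9 and 28, CpG-rich regions ranked above all regions bound at all stages and AP-1 regions below them. CpG-rich regions had medians of 55.0 (95% interval 51.6 to 58.0), 80.1 (78.3 to 81.4) and 73.6 (71.5 to 76.0) at days 0, 9 and 28, and regions with the GC box 52.9, 80.5 and 72.2. Those with an AP-1 word had 58.9 (55.2 to 61.0), 64.6 (62.0 to 67.5) and 51.7 (50.3 to 54.7), and those with TGTGGT 59.4, 72.3 and 60.4. Regions with a TEAD word had the highest day 0 median of these (65.0, 61.9 to 68.4), and those with the CTCF word the lowest at each day (34.6, 58.5 and 49.7). Because the rule used the scores, these medians are given without a test.

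By nearest TSS, the regions belonged to 4617 of 22359 protein-coding genes, so that 20.6% of genes had at least 1. A single region was found at 2841 of these genes and 5 or more at 246, and the 246 genes together held 1561 regions (18.8%). Over all genes the density was 5.38 regions per Mb of territory, the bases 1 to 100 kb away for which a gene's TSS is the nearest. The gene with the most was Col5a1, which encodes a chain of the fibrillar collagen V (14 regions), followed by Zmiz1, a coactivator of the PIAS family (13). Their territories were 249 and 273 kb, against a median of 43.8 kb over all genes.

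The next genes by number of regions included several regulators of transcription and signalling. Cebpb, a bZIP transcription factor, Lhfpl2, a tetraspan membrane protein, and Rxra, the retinoid X receptor, had 12 each. The regions of Rxra and Col5a1 lay in adjoining stretches of chromosome 2 and were divided by nearest TSS. Mylk, the kinase of myosin light chains, and Smad7, the inhibitory Smad of TGF-beta signalling, had 11 each, and Socs3, a suppressor of cytokine signalling, and Tns3, a focal adhesion protein, 10 each. Among these genes, Socs3 had the densest territory (184 per Mb over 54.4 kb), followed by Cebpb (107 per Mb over 112 kb). At Rxra none of the 12 regions held TGTGGT or an AP-1 word at its centre, and at Cebpb 2 held TGTGGT and 2 an AP-1 word.

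**Figure D4:**
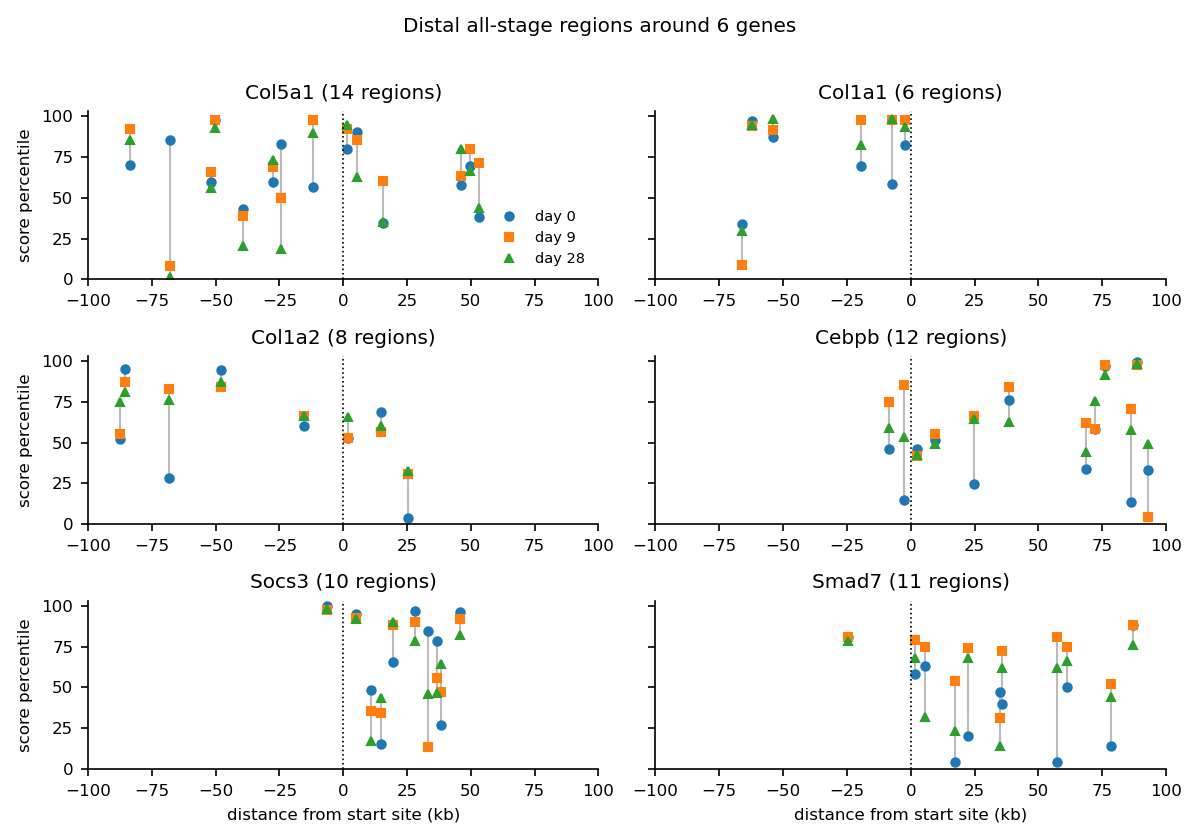
Score percentile within each list (y axes) of every distal region bound at all stages around Col5a1, Col1a1, Col1a2, Cebpb, Socs3 and Smad7, against the distance in kb from the nearest start site of that gene (x axes, dotted line at 0), with blue circles for day 0, orange squares for day 9 and green triangles for day 28 joined by a grey line per region. Neighbouring regions of one gene differ in level and in order of the days, as at Col5a1, where day 9 percentiles run from 8.08 to 97.6.

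Regions around one gene varied widely in strength. The 14 regions of Col5a1 lay from -83685 to 53071 bp and had percentiles from 34.4 to 97.9 at day 0, 8.08 to 97.6 at day 9 and 1.49 to 94.6 at day 28. The region at -67.8 kb of Col5a1 was at 85.5 at day 0, 8.08 at day 9 and 1.49 at day 28, while that at -11.8 kb was at 56.3, 97.6 and 89.4. At Cebpb the region at 88.7 kb had the top score in all lists, and that at 92.8 kb was at 33.1, 4.65 and 48.9. At Socs3 the region at -6.23 kb had the top score in all lists, and that at 33.2 kb was at 84.4, 13.6 and 45.9. All 11 regions of Smad7 had a percentile at or below 88.5 at day 9.

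Among 18 lists of genes, the AP-1 factors and the bone matrix proteins had the most regions for the size of their territory. At least 1 region was near 11 of 13 genes for AP-1 and related bZIP proteins (84.6%, 34.1 per Mb), led by Jdp2, a repressor of AP-1 (5), Fosb (4) and Fos (3), subunits of AP-1. Junb also had 3 regions, in a territory of 8.18 kb. Of 30 bone matrix genes 24 had a region (24.2 per Mb), led by the collagen genes Col5a1 (14), Col1a2 (8) and Col6a3 (7), against 20.6% of all genes and 5.38 per Mb. Of 34 genes of the cytoskeleton and of adhesion 22 did (20.1 per Mb), with 8 regions at Myh9, the non-muscle myosin heavy chain, 7 at Itga11, a collagen-binding integrin, and 6 at Cald1, the actin-binding protein caldesmon. These lists were also dense in other distal patterns. At days 9 and 28 and at day 9 only, bone matrix genes had 19.1 and 23.3 per Mb. The AP-1 list had 14.2 and 21.3 and the cytoskeleton list 13.0 and 15.3, against 6.56 and 11.0 over all genes.

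Lists of the osteoblast programme were also denser than all genes (5.38 per Mb), as were lists outside it, among them adipocyte genes (14.8 per Mb). Of 26 osteoblast transcription factors 18 had a region (15.9 per Mb), led by Runx1 (8), Runx3 (7) and the forkhead factor Foxc2 (5). Of 25 genes for mineralization and collagen processing 15 did (17.2 per Mb), led by Adamts2, the procollagen N-proteinase (5), Ank, a pyrophosphate transporter (5), and Leprel1, a prolyl hydroxylase (4). Of 23 matrix proteases and inhibitors 12 did (14.9 per Mb), led by Adamts9 (4), Htra1 (4) and Mmp2 (3). At days 9 and 28, these lists had 17.9, 16.7 and 14.9 per Mb in the same order, against 6.56 over all genes. At day 9 only they had 21.6, 16.7 and 9.31 per Mb, against 11.0 over all genes.

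Among signalling lists, the TGF-beta and BMP pathway had regions at 25 of 39 genes (14.9 per Mb), led by the inhibitory Smad7 (11), the receptor-regulated Smad3 (8) and the inhibitory Smad6 (8). FGF, IGF and hormone signalling had them at 21 of 29 (15.3 per Mb), led by Rxra (12), Fgfr2 (4) and the growth hormone receptor gene Ghr (4). The Wnt pathway had them at 19 of 36 (12.01 per Mb), led by the transcription factor Tcf7l2 (8), the coreceptor Lrp5 (7) and the secreted Wisp2 (6). The Hippo pathway had them at 10 of 20 (17.6 per Mb), led by Vgll4, a TEAD cofactor (8), Cyr61, a matricellular target of YAP (7), and Amotl2, a YAP-binding protein (6). Csf1, which encodes a cytokine for osteoclast precursors, had 8 of the 11 regions of the osteoclast and marrow list (4 of 12 genes, 7.44 per Mb), with Cxcl12 and Il1rl1 at 1 each. Distal regions of days 9 and 28 had 22.1 per Mb at the FGF, IGF and hormone list, 17.6 at the Wnt list and 8.79 at the osteoclast list. They had 10.9 at the TGF-beta and BMP list and 11.55 at the Hippo list. Over all genes the density also differed, with 6.56 per Mb at days 9 and 28 and 5.38 at all stages.

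Lists for other cell types spanned a wide range. Adipocyte genes had regions at 9 of 17 (14.8 per Mb), of which Cebpb held 12 and Zfp423 5, with 1 at Adipoq. Muscle genes had them at 5 of 16 (11.8 per Mb), with 5 at Pax3, 4 at Mef2d and 1 at Acta1. Cartilage genes had them at 7 of 14 (6.46 per Mb), with Comp at 3, Col2a1 at 2 and Sox9 at 2. Neuronal genes had them at 5 of 18 (1.29 per Mb), with 2 at Rbfox3 and 1 each at Dcx and Neurod1, and blood cell genes at 1 of 18 (1.14 per Mb), which was Emr1. The blood list, with a territory of 0.879 Mb, had 12.5 distal regions per Mb at day 9 only, near the 11.0 over all genes. It had none at day 0 only, where the density over all genes was 1.76 per Mb. Cell cycle genes had regions at 12 of 26 (13.6 per Mb), led by Ccnd1 (7), Myc (4) and Ccnd3 (2), and chaperone genes at 6 of 25 (9.77 per Mb), with 2 at Hspa8, 2 at Pdia4 and 1 at Dnajb1. The median number of regions per gene was 2 for osteoblast transcription factors, 1 for 9 other lists and 0 over all genes.

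**Figure D5:**
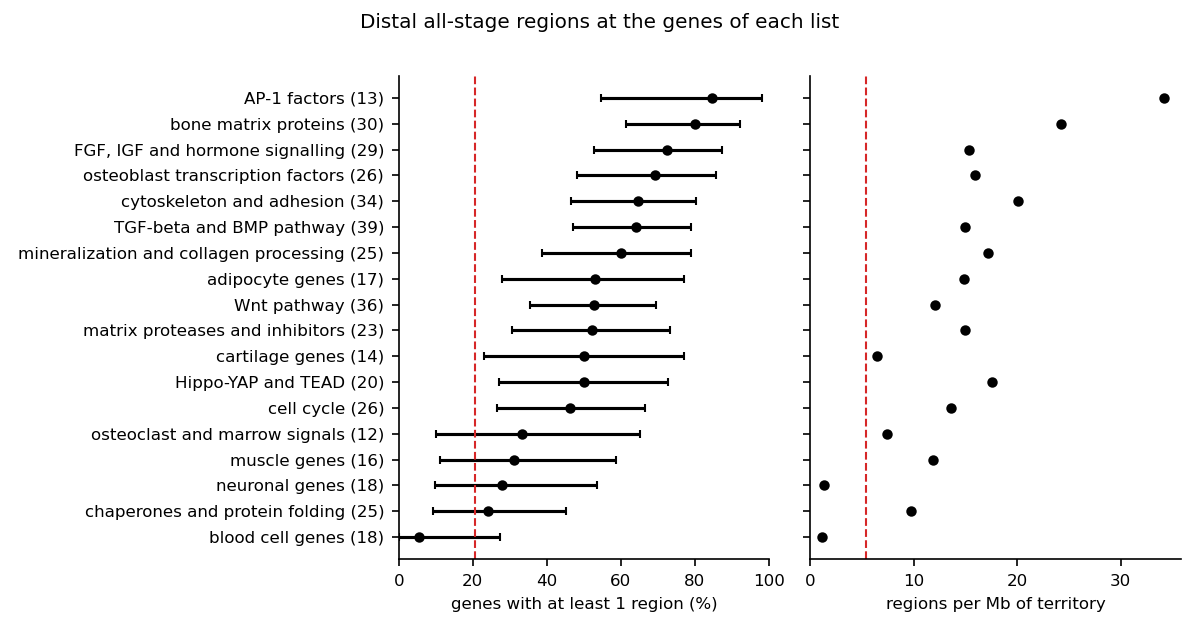
Share of genes with at least 1 distal region bound at all stages, with exact binomial 95% intervals (left, percent), and number of regions per Mb of territory (right) for each gene list, with the number of genes in brackets. Red dashed lines mark all protein-coding genes (20.6% and 5.38 per Mb), and the AP-1 and bone matrix lists lie farthest above them while the neuronal and blood lists lie below the density of all genes.

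Genes that the study followed or that mark osteoblasts differed in whether they had such a region. Runx2 had 2, Sp7 3, Col1a1 6, Alpl, Ibsp and Crabp2 2 each and Spp1 1, whereas Bglap2 (osteocalcin), Ezh2 (the Polycomb methyltransferase), Adamts4 (aggrecanase), Tnfrsf19 (a TNF receptor) and Mmp13 (collagenase) had 0. The territories of Bglap2 and Adamts4 were only 2.13 and 8.76 kb, while those of Ezh2 and Tnfrsf19 were 175 and 206 kb. Regions within 1 kb of a TSS or centred in an exon are left out by the rule. A count of 0 thus does not mean that no binding at all stages was present at the gene. The study reports such binding at the proximal promoter of Ezh2.

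The strongest of these were at Alpl and Sp7. The Alpl region in an intron at 22127 bp (chr4:137299112-137301413) had the top score at all time points, and the other Alpl region, at 1477 bp, was at percentiles 25.1, 60.1 and 39.3 at days 0, 9 and 28. The Sp7 region at -10585 bp (chr15:102206871-102208869) was at 97.7, 97.6 and 98.0, and the intronic one at 3179 bp at 77.2, 97.6 and 98.0. The third Sp7 region, at 6052 bp, whose sequence with TGTGGT is shown above, was weaker, at 38.7, 61.4 and 63.2.

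At Col1a1, which encodes a chain of collagen I, all 6 regions lay upstream, from -65989 to -2071 bp. The 3 nearest, at -19615, -7190 and -2071 bp, were at percentiles 69.4, 58.3 and 82.2 at day 0 and had the top score at day 9. The region at -62371 bp was high at each time point (96.9, 94.0 and 94.7), and that at -65989 bp low (33.9, 8.63 and 29.96). None of the 6 held TGTGGT in the central 100 bp.

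The remaining regions of this group were mostly of middle rank. At Runx2, the region at 56690 bp in an intron (chr17:44814570-44815334) was at percentiles 78.0, 84.8 and 84.7, and that at -1327 bp from the nearer TSS (chr17:44873999-44875849), which was CpG-rich and held the AP-1 word shown above, at 44.9, 57.5 and 68.6. The Spp1 region at -27120 bp (chr5:104836368-104837666), with TGTGGT at its centre, was at 85.0, 31.1 and 61.3. The regions upstream of Ibsp, bone sialoprotein, were at 61.7, 75.1 and 68.0 (-47098 bp) and at 8.90, 4.96 and 46.9 (-43522 bp). Those of Crabp2, a retinoic acid-binding protein, were at 22.0, 65.9 and 52.9 (-3823 bp) and at 82.6, 62.2 and 53.4 (1297 bp).

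Near the limits of the rule, the region in an intron of Dlc1 lay 1001 bp from a TSS and was included, with percentiles of 91.8, 97.6 and 91.8, while that of Chst12 at 1000 bp was not (46.1, 86.7 and 75.6). The region at -99996 bp from Klf14 was included and that at 100053 bp from Cux1 was not (32.9, 72.5 and 25.6). The lowest scores kept, against the threshold of 100, were 100.01 at day 0 in an intron of Shq1, 100.02 at day 9 near Dnajb6 and 100.06 at day 28 in an intron of Wasf1. Best peaks under a score of 110 were present at 294 regions at day 0, 133 at day 9 and 131 at day 28.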

How the data were processed

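Runx2 ChIP-Seq was performed at day 0, day 9 and day 28, with 1 input control. Per the labels and the study's methods, the authors called bases with CASAVA (version 1.6), aligned single-end reads against mm9 using Bowtie 0.12.8, combined the 2 libraries of each time point, ran MACS 1.4.1 with default settings against input DNA of day 9 cells, and retained peaks at a p-value of 1e-10. The deposited score, which the authors took from MACS, is the negative log10 of the p-value multiplied by 10. It depends on read depth, which the lists do not hold, and was ranked within a list, with scores of 3100 or more treated as tied. The study reports more raw reads at day 0 than at either later day.

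Peaks were merged and placed here with NCBIM37 and 51710 transcripts (protein-coding) of GENCODE M1. Words were searched on both strands in 100 bp at the core centre and in flanks 450 to 550 bp away, and composition was taken over 200 bp. Regions were given to the gene of the nearest TSS. Of the gene lists, 1 symbol (Cebpd) had no match. Named were the 10 regions with the highest minimum percentile, the 5 with most TGTGGT, the 3 largest gains and losses in percentile, the 10 genes with most regions, the 3 leading genes of each list, 12 genes of the study or of osteoblasts, and the regions at the limits of the rule. The values of 1 gene that this rule names are not reported here. Junb is named in addition, after its values were seen. The regions, gene lists and named genes were chosen with earlier results of these data known.

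Shares carry exact binomial 95% intervals, differences of shares Newcombe intervals and medians distribution-free intervals, all of counting error only. No test between time points was made, since each has a single pooled list. Scripts ran in Python (version 3.11.15) with SciPy (version 1.17.1), NumPy (version 2.4.6) and, for plots, Matplotlib (version 3.10.9), and the procedures were tested on simulated data. RefSeq promoter sequences were not used, and the input library was not analysed here.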

Additional observations from a re-analysis of the deposited data

How the results depend on the processing

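No paired analysis was possible because each time point has a single pooled list of peaks, and for the same reason no replicate could be left out. A repeat-masked search was planned but not run, since the genome sequence at hand is not soft-masked. Of 74 alternatives, 28 stayed within 1.5 times a count or within the interval of the value reported. The number of distal regions bound at all stages was 4880 at a p-value of 1e-20, 2039 at 1e-50, 822 at 1e-100 and 5374 with lists of equal length, and 1513 genes had a region at 1e-50. The share with TGTGGT was 14.05%, 42.44% and 56.91% within 25, 100 and 200 bp of the centre, 31.31% with TGCGGT also counted, 12.11% for TGTGGTT, 21.65% at the centre of the merged region and 22.51%, 25.29% and 23.94% at the centres of the day 0, day 9 and day 28 peaks. Median GC content was 54.00% over 100 bp, 52.50% over 400 bp, 52.00% at the merged centre and 54.00% at 1e-20. Introns of all transcripts held 50.58% of the regions, and non-coding start sites lay within 500 bp of 4.435%, within 2 kb of 9.714% and inside 5.231%. The median percentile was 62.36, 76.38 and 72.77 at days 0, 9 and 28 among distal peaks alone, 55.21, 70.21 and 60.36 with exactly 1 peak per list, and 71.85 at day 9 and 62.71 at day 28 for the best peak of a region. In alternatives chosen after seeing the data, lists of equal length put the highest percentile at day 0 for 52.25% of regions, at day 9 for 24.73% and at day 28 for 23.02%, and the shares more than 30 points higher and lower were 12.49% and 22.46% from day 0 to day 9 and 7.629% and 5.173% from day 9 to day 28. The order of the time points thus changed with the length of the lists. At the centre of the same kind of peak, the TGTGGT difference was 3.442 points against day 0 only and -7.795 points against day 9 only. Also, TGTGGT was at 29.06% and AP-1 words at 7.200% without CpG-rich windows, and AP-1 words were at 3.447% and 12.93% within 25 and 100 bp, at 5.833% at the day 0 centre, and at 5.881% and 5.346% at 1e-20 and 1e-50.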
